A study of Mus musculus with 4 samples.

Results

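The MS4A genes (membrane-spanning 4-domains subfamily A) lie side by side on mouse chromosome 19, and 8 of them (Ms4a1, Ms4a4a, Ms4a4b, Ms4a4c, Ms4a6b, Ms4a6c, Ms4a6d and Ms4a7) were followed here across the immune cells of the healthy liver. They were taken as a list by symbol, and are 8 of the 19 genes with an Ms4a symbol and of the 32285 genes counted. Each was measured as UMIs (unique molecular identifiers, which count captured RNA molecules) in 1593 kept cells. The cells were CD45+ cells from livers of mice of genotype PA-GFP C57BL/6, which carry a photoactivatable green fluorescent protein. Photoactivation was the labelled treatment of every library, and no age is given in the sources used here. Single-cell 3′ libraries came from tissue zones near the portal vein (PV, 2 libraries) and near the central vein (CV, 2 libraries), and the study compares cells of these zones. Whether separate mice gave the libraries is not stated in the labels. The spread behind each p-value is therefore that between libraries and may be only technical.

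MS4A proteins cross the membrane several times and sit in immune cell membranes, where several of them associate with other receptors and tune their signals. MS4A1 is CD20, the B cell surface protein that therapeutic anti-CD20 antibodies bind. In mice, MS4A4B is known from T cells, where it was found next to the costimulatory receptor GITR and shown to restrain proliferation. MS4A6D, MS4A7 and MS4A4A are known from monocytes and macrophages. Kupffer cells, the resident macrophages of the liver sinusoids, form a main immune population of this organ beside other macrophages and its T, NK and B cells.

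The libraries held 588 to 755 barcodes and 2741760 to 4373488 UMIs in all. A barcode was kept with at least 200 genes, at most 10% mitochondrial UMIs and, where more than 1 library held it, only in the library with at least 70% of its UMIs. Of 1939 distinct barcodes, 282 occurred in more than 1 library. The rule left 333 and 512 cells in PV replicates 1 and 2, and 372 and 376 cells in CV replicates 1 and 2, with medians of 5369 to 6317.5 UMIs per cell. Ptprc, which encodes the sorted protein CD45, had a UMI in 97.6%, 92%, 95.2% and 92% of them, in the same order of libraries. Cells were placed in classes by detected lineage markers, none of them an MS4A gene. There were 737 T cells, 156 B cells, 102 NK cells and type 1 innate lymphoid cells (ILC1), 282 macrophages, 83 type 1 and 31 type 2 conventional dendritic cells, 86 neutrophils, 31 plasmacytoid dendritic cells and 12 monocytes, while 41 cells fitted no class. Macrophages with at least 4 of 10 Kupffer markers are called Kupffer cells (227), and the other 55 are called macrophages outside the Kupffer gate. Class levels are UMIs of a gene per 1000000 UMIs of all genes in that class and library (CPM), a scale on which classes but not genes can be compared. Means over libraries use those with at least 10 cells of the class.

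In the GRCm38 annotation the 19 genes span chr19:10962293-11640851, which is 678.559 kb. The first 10 genes along the chromosome lie on the minus strand and end with Ms4a1, Ms4a5, Ms4a14 and Ms4a7. The next 6 lie on the plus strand in the order Ms4a4a, Ms4a4c, Ms4a4b, Ms4a6c, Ms4a6b and Ms4a4d, and Ms4a6d, Ms4a2 and Ms4a3 follow on the minus strand. All kept cells together held 5567 UMIs of Ms4a4b, 3366 of Ms4a6b, 1619 of Ms4a6c, 564 of Ms4a1, 481 each of Ms4a4c and Ms4a7, 445 of Ms4a6d and 15 of Ms4a4a. Genes with many UMIs and genes at or near 0 lie next to each other, as the map of the cluster shows. Neighbours here are next to each other among the Ms4a genes, and the protein-coding gene Gm8369 lies between Ms4a6c and Ms4a6b.

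**Figure D1:**
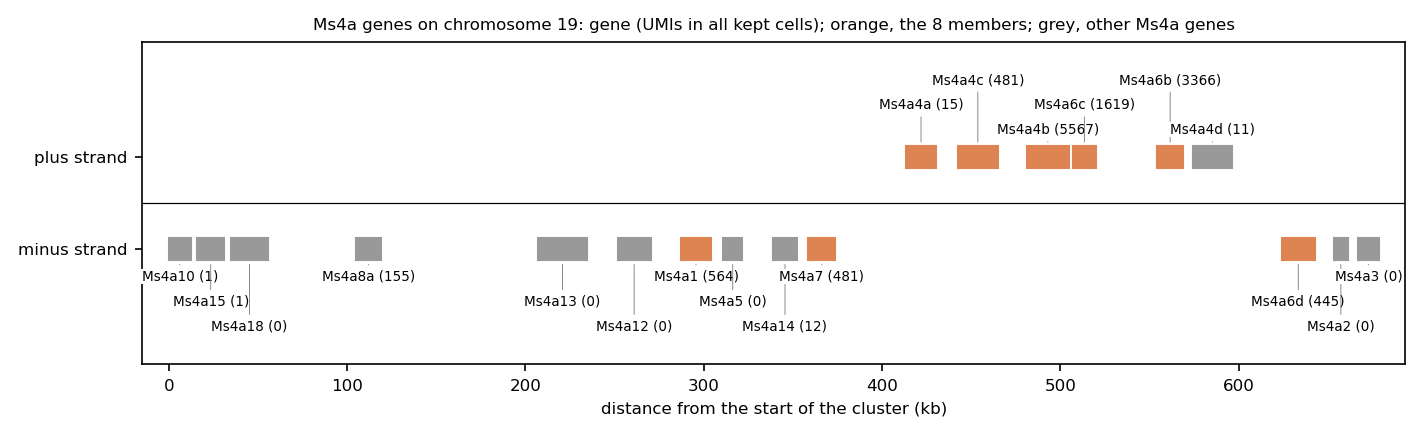
Map of the Ms4a genes, with the distance from the start of the cluster in kb on the x axis and the strand on the y axis, and with the UMIs of each gene over all kept cells in brackets. The 8 members are orange and the other Ms4a genes grey; the plus-strand block in the middle holds Ms4a4b with 5567 UMIs beside Ms4a4c with 481.

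Some of these genes are close copies. The coding sequences of the neighbours Ms4a4b and Ms4a4c were 91.7% identical and those of the neighbours Ms4a6b and Ms4a6c 74.7%, while Ms4a6b and the minus-strand gene Ms4a6d reached 80.1%. Other neighbours were less alike, with 59.9% for Ms4a4a and Ms4a4c and 51.7% for Ms4a4b and Ms4a6c. Counting read the 3′ ends of transcripts. Of all 50-base windows in the last 500 bases of the annotated transcripts, 11.1% of those of Ms4a4c and 2.25% of those of Ms4a4b also occurred in another Ms4a gene. The shares were 6.1% for Ms4a6c and 3.35% for Ms4a6b, and no such window was shared for Ms4a1, Ms4a4a, Ms4a6d or Ms4a7. Reads from shared windows could be assigned to a copy or dropped. Ms4a4c, Ms4a6c and Ms4a6b also overlap exons of a gene on the opposite strand.

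The promoters of these neighbours are shown because the copies differ in the cells that express them. The RefSeq windows (GRCm38.p6, plus strand, 250 bases before to 50 after the annotated start) of Ms4a4b, chr19:11443308-11443607, and Ms4a4c, chr19:11407411-11407710, were 72.1% identical. The RefSeq starts of Ms4a4c and Ms4a6b, 11407661 and 11518559, lie downstream of their gene starts in the map, 11404770 and 11516512. Windows at those map starts were not searched. Motifs searched on both strands were GAGGAA (PU.1-type ETS), TGTGGT (RUNX), GAAACT (IRF), CAGCTG (E-box) and TCACACC (T-box), none of which overlapped another here. Capitals mark the matches.
Ms4a4b: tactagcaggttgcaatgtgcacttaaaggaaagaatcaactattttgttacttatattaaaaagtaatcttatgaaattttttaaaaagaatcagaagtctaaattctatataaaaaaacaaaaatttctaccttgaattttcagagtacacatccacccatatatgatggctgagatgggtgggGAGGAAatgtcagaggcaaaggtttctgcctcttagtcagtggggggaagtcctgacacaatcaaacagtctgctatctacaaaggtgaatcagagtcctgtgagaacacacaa
Ms4a4c: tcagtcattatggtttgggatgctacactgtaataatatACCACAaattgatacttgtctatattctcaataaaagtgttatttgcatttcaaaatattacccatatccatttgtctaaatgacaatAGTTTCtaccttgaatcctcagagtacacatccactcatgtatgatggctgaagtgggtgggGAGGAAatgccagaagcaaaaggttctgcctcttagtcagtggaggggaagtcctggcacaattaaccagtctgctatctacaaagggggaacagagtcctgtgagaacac

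Both windows held GAGGAA, at -64 in Ms4a4b and at -61 in Ms4a4c. The Ms4a4c window alone of this pair held GAAACT (minus strand, -123) and TGTGGT (minus strand, -211). Over all 32851 promoter windows of this length, GAGGAA occurred in 28.3%, GAAACT in 15.8%, TGTGGT in 16.8%, CAGCTG in 16.3% and TCACACC in 3.98%. Of the other windows, one of the 2 of Ms4a7 held TCACACC and GAGGAA and the other held GAAACT, while those of Ms4a4a, Ms4a6b and Ms4a6c held none of the 5 motifs. No window was available for Ms4a1 and Ms4a6d.

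The windows of Ms4a6b, chr19:11518309-11518608, and Ms4a6c, chr19:11469118-11469417, were 51.2% identical when aligned end to end. They shared an unbroken run of 48 bases, in capitals, at different distances from the start: -118 to -71 in Ms4a6b and -49 to -2 in Ms4a6c.
Ms4a6b: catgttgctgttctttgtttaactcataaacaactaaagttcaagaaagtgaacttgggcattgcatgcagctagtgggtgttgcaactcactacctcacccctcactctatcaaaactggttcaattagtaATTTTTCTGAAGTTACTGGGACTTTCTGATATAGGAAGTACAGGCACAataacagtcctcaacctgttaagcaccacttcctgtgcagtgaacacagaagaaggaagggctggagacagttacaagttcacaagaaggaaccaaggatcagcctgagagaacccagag
Ms4a6c: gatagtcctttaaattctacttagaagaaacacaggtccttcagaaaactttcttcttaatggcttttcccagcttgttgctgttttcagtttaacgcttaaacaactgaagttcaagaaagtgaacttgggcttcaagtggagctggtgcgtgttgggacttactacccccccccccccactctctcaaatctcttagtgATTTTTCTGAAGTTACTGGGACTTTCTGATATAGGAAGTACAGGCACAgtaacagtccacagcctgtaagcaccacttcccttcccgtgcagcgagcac

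Ms4a1, the gene of CD20, was found mainly in B cells. It had 735.6 and 990.0 CPM in PV B cells and 874.2 and 781.3 CPM in CV B cells, a mean of 845.3 ± 112.4 CPM (SD, n = 4 libraries). B cells held 538 of the 564 UMIs. No Ms4a1 UMI was counted in any T cell, NK cell or ILC1, macrophage, neutrophil or plasmacytoid dendritic cell of any library. Against the floor of 3 counts over a class, the B cell level was at least 1406-fold higher than that of T cells and at least 651.4-fold higher than that of macrophages. The remaining UMIs included 8 in type 1 dendritic cells, 7 of them in 4 cells of PV replicate 2, and 12 in the 9 plasma cells. Another 3 lay in the 13 cells of PV replicate 2 classed as sinusoidal endothelial cells (47.9 CPM).

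B and T cells were compared with edgeR's quasi-likelihood test on class sums, with the library as a block. Of the 5 members that passed the filter on low counts, 4 passed the adjusted threshold of 0.05, Ms4a1 and Ms4a4c higher and Ms4a4b and Ms4a6b lower in B cells. Of all 5972 genes tested, 30.5% passed, so a large share of calls is the background of this comparison. The members' median log2 fold change was -0.51, and that of all genes was -0.05. This comparison and those of macrophages and of NK cells below use the same T cell sums, so they are not independent.

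**Figure D2:**
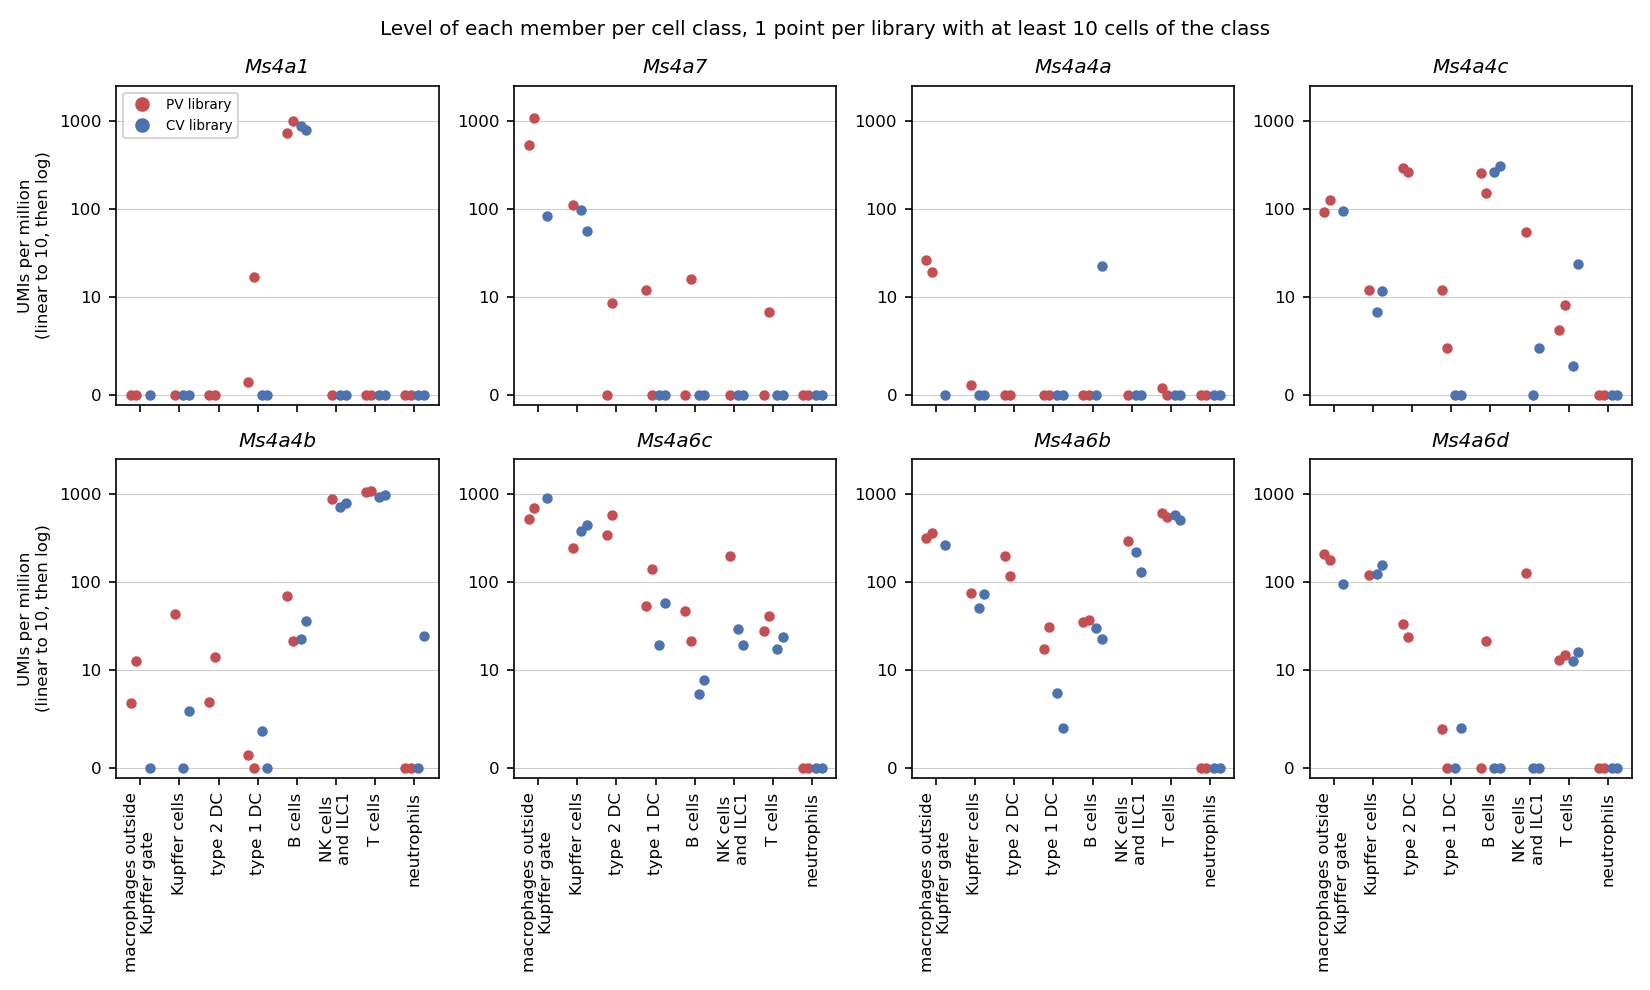
Level of each member in CPM (y axis, linear to 10 and logarithmic above) in each cell class (x axis), with 1 point per PV or CV library that has at least 10 cells of the class. Ms4a1 stands at 735.6 to 990.0 CPM in B cells and Ms4a4b at 920.9 to 1089 CPM in T cells. Ms4a6c, Ms4a6d and Ms4a7 have their highest class means in macrophages outside the Kupffer gate.

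Ms4a4b was the member with the most UMIs and was highest in NK cells, ILC1 and T cells. NK cells and ILC1 had 889.2 CPM in PV replicate 2 and 710.7 and 796.8 CPM in the CV libraries (798.9 ± 89.3 CPM, SD, n = 3), and the 7 such cells of PV replicate 1 stood at 1193 CPM. B cells had 70.1 and 21.3 CPM in PV libraries and 22.8 and 35.9 CPM in CV libraries. T cells had 1055 and 1089 CPM in PV libraries and 920.9 and 972.3 CPM in CV libraries (1009 ± 76.7 CPM, SD, n = 4), above every B cell sum and above the NK cell and ILC1 sums of the libraries with at least 10 such cells. NK cells and ILC1 were 1.44-fold lower than T cells over the 3 libraries with enough of both (log2 fold change -0.53 ± 0.12 SE, edgeR adjusted p = 0.00665), a call that DESeq2 did not make and that was lost without CV replicate 1 or without CV replicate 2. B cells were 27.1-fold below T cells (log2 fold change -4.76 ± 0.20, adjusted p = 2.57e-14).

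In macrophages Ms4a4b was at 5.96 and 39.3 CPM in PV libraries and at 0 and 4.59 CPM in CV libraries. It was lower than in T cells by 6.38 ± 0.50 on the log2 scale (log2 fold change -6.38, edgeR adjusted p = 4.87e-07). Of the 45 macrophage UMIs in PV replicate 2, 29 lay in 3 cells. With macrophage barcodes that also held at least 3 markers of another lineage left out, an alternative added after the data were seen, 4 UMIs were left there (8.79 CPM).

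Ms4a6b was highest in T cells, as Ms4a4b was, but was also counted in myeloid cells. Macrophages outside the Kupffer gate had 314.1 and 356.9 CPM in PV libraries and 262.9 CPM in CV replicate 2, with 500.3 CPM in the 8 such cells of CV replicate 1. NK cells and ILC1 followed at 212.8 ± 81.0 CPM (n = 3) and overlapped both that class and type 2 dendritic cells. The latter had 196.4 and 117.7 CPM in the PV libraries. With barcodes holding at least 3 markers of another lineage left out, NK cells and ILC1 of PV replicate 2 went from 290.3 to 177.7 CPM (18 to 17 cells). NK cells and ILC1 then had 117.6 to 219.1 CPM, below the 230.7 to 402 CPM of macrophages outside the gate. Kupffer cells were lower, at 74.8 CPM in PV replicate 2 and 50.9 and 73.4 CPM in the CV libraries, and B cells had 22.4 to 37.3 CPM. T cells had 615.4 and 555.8 CPM in PV libraries and 578.7 and 501.2 CPM in CV libraries (562.8 ± 47.9 CPM, SD, n = 4), above all of these classes where they had at least 10 cells.

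Against T cells, Ms4a6b was 16.5-fold lower in B cells (log2 fold change -4.04 ± 0.21, adjusted p = 6.19e-13), 4.48-fold lower in all macrophages (-2.16 ± 0.25, adjusted p = 1.26e-05) and 3.11-fold lower in NK cells and ILC1 (-1.64 ± 0.19, adjusted p = 3.53e-06), each by edgeR. In NK cells and ILC1 against T cells, 2 of 3 members tested were called, both lower, where 9.94% of 6246 genes were called. The members' median was -0.53 and that of all genes -0.0009. The third, Ms4a6c, had a log2 fold change of 1.08 ± 0.43 (adjusted p = 0.145), and 21 of its 22 UMIs in the NK cells and ILC1 of PV replicate 2 lay in 1 cell.

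Most T cells held both Ms4a4b and Ms4a6b. To compare shares of cells across depths, the UMIs of every cell were sampled down to 4060. Cells with fewer were left out: 27 NK cells and ILC1, 93 B cells, 86 macrophages, 70 of the 86 neutrophils and 88 T cells. Of 75 thinned NK cells and ILC1, 86.7% had a UMI of Ms4a4b (95% Wilson interval 77.2 to 92.6%) and 44% of Ms4a6b (33.3 to 55.2%), and 30 had both. B cells, shown for comparison, had 14.3% (7.7 to 25%) for Ms4a4b and 9.52% (4.44 to 19.3%) for Ms4a6b. They were not the lowest class for Ms4a4b, which was in 3.23% of Kupffer cells and in none of 79 type 1 dendritic cells. Ms4a6b was in 23.2% and 2.53% of these classes. Among the 649 thinned T cells, 95.2% had Ms4a4b (93.3 to 96.6%) and 84.4% had Ms4a6b (81.5 to 87.0%). In these, 529 cells had both, 89 Ms4a4b only, 19 Ms4a6b only and 12 neither. Before thinning the median depth was 4930 UMIs in NK cells and ILC1, 3662 in B cells and 6165 in T cells, and these intervals cover counting error only.

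**Figure D3:**
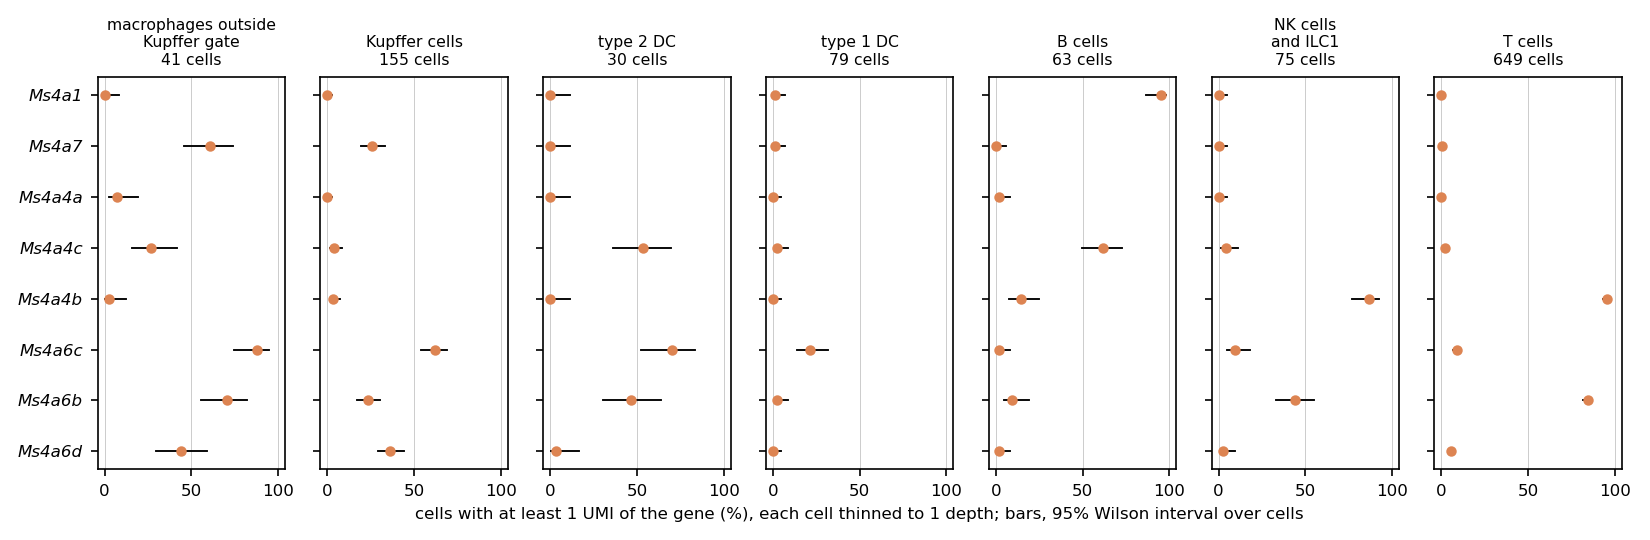
Share of cells with at least 1 UMI of each member (x axis, percent), each cell thinned to 4060 UMIs, in each class (panels), with the 95% Wilson interval over cells as bars. Ms4a1 reached 95.2% of B cells, Ms4a4b 95.2% of T cells and Ms4a6c 87.8% of macrophages outside the Kupffer gate. Neutrophils, plasmacytoid dendritic cells and monocytes have no panel.

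Most T cells carried Cxcr6, the chemokine receptor of liver-resident lymphocytes, and a smaller set carried recirculation markers such as Ccr7 (called recirculating-like here). Cxcr6+ T cells had 1054 and 979.3 CPM of Ms4a4b in PV libraries and 927.5 and 1045 CPM in CV libraries. Recirculating-like T cells had 932.2 and 1548 CPM in PV libraries and 1199 and 1006 CPM in CV libraries, from 8, 28, 9 and 25 cells. For Ms4a6b, Cxcr6+ T cells had 625.6, 495.2, 588.9 and 535.2 CPM and recirculating-like T cells 719.6, 972.6, 663.7 and 583.0 CPM in the same order, so the recirculating-like cells were higher in each library.

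This pair of T cell sets was tested with a minimum of 5 cells per library, which was added after the data were seen. Cxcr6+ T cells were lower in Ms4a6b (log2 fold change -0.63 ± 0.19, edgeR adjusted p = 0.0211), and Ms4a4b did not pass (-0.45 ± 0.17, adjusted p = 0.0848). Thus 1 of 3 members tested was called, against 12.4% of 5015 genes, with a member median of -0.45 and an all-gene median of 0.04. DESeq2 made no member call here, and the Ms4a6b call was lost without PV replicate 2 (-0.38) and with no filter on low counts (-0.34). The partner gene Tnfrsf18, which encodes GITR, was higher in Cxcr6+ T cells (1.98 ± 0.34, adjusted p = 5.68e-05).

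Ms4a4c, the close copy of Ms4a4b, had its levels in other cells. Type 2 dendritic cells had 291.2 and 263.6 CPM in the PV libraries, where 10 and 17 such cells were kept. The CV libraries, with 2 such cells each, had a mean of 192.9 CPM from 10 UMIs. B cells had 256.9 and 154.3 CPM in PV libraries and 266.1 and 305.3 CPM in CV libraries (245.7 ± 64.4 CPM, SD, n = 4), overlapping the type 2 dendritic cells. Macrophages outside the Kupffer gate were next, with 93.6 and 127.5 CPM in PV libraries and 94.6 CPM in CV replicate 2, and 100.1 CPM in the 8 cells of CV replicate 1. Kupffer cells had 12.1 CPM in PV replicate 2 and 8.48 and 11.8 CPM in the CV libraries. The monocytes were few, and 6 or fewer cells a library gave 291.2 and 852.7 CPM in PV libraries and 0 and 144.8 CPM in CV libraries.

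In B cells Ms4a4c was 24.6-fold higher than in T cells (log2 fold change 4.62 ± 0.32, edgeR adjusted p = 8.1e-11). Of 63 thinned B cells, 61.9% had a UMI (49.6 to 72.9%), against 2.31% of T cells (1.41 to 3.78%), and 37 had both Ms4a1 and Ms4a4c, 23 Ms4a1 only, 2 Ms4a4c only and 1 neither. In all T cells it stood at 6.61 and 9.24 CPM in PV libraries and 2.93 and 23.9 CPM in CV libraries.

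The few Ms4a4c UMIs of T cells gave higher levels in CD8 than in CD4 cells. T cells with a UMI of Cd8a or Cd8b1 but not Cd4 had 40.5 and 80.8 CPM in PV libraries and 102.3 and 77.5 CPM in CV libraries, from 3, 9, 2 and 18 UMIs in 11, 18, 5 and 25 cells. T cells with Cd4 alone had 6.27 and 0 CPM in PV libraries and 0 and 7.33 CPM in CV libraries. The CD8 values lay above the CD4 values in every library without overlap, and no test was run on these small sums. Recirculating-like T cells also had more, with means of 17.8 CPM in PV and 52.9 CPM in CV libraries, from 4 and 13 UMIs. Cxcr6+ T cells had 3.59 and 4.38 CPM, from 8 and 7 UMIs. The low-count filter left Ms4a4c out of the main test of these sets. In the T cells of CV replicate 2, 16 of the 27 Ms4a4c UMIs lay in 3 cells. With mixed barcodes left out, all T cells had 8.68 and 10.1 CPM in PV libraries and 1.55 and 10.4 CPM in CV libraries. Ms4a4b had 1146 and 1356 CPM in the CD8 T cells of PV libraries and 1586 and 896.0 CPM in those of CV libraries. CD4 T cells had 1051 and 1251 CPM in PV libraries and 828.5 and 1025 CPM in CV libraries, so these sets overlapped.

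**Figure D4:**
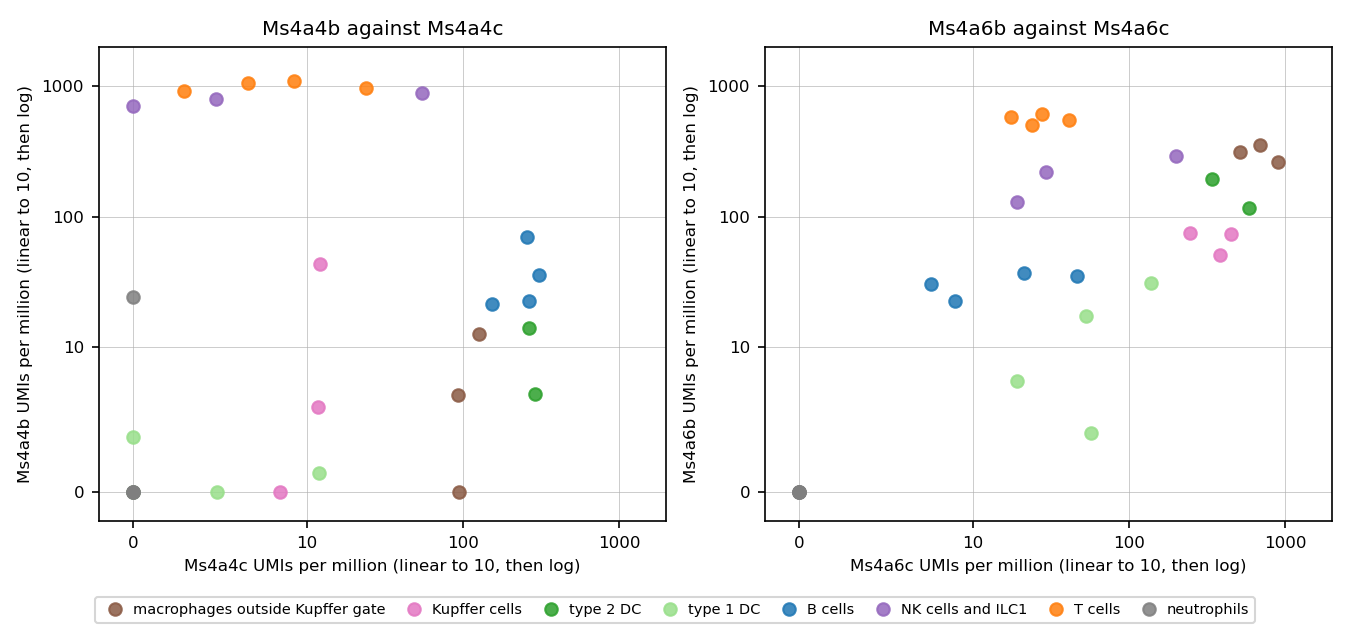
Levels of paralogous neighbours against each other in CPM (both axes linear to 10 and logarithmic above), with 1 point per class and library. T cells lie at high Ms4a4b and low Ms4a4c, B cells and type 2 dendritic cells at high Ms4a4c and low Ms4a4b, and macrophages outside the Kupffer gate combine Ms4a6b and Ms4a6c.

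Ms4a6c, Ms4a6d and Ms4a7 had their highest class means in macrophages outside the Kupffer gate. Macrophages outside the Kupffer gate had 514.6 and 688.4 CPM of Ms4a6c in PV libraries and 904.3 CPM in CV replicate 2, with 1051 CPM in the 8 cells of CV replicate 1. Kupffer cells had 245.8 CPM in PV replicate 2 and 381.7 and 449.5 CPM in the CV libraries, and the 4 Kupffer cells of PV replicate 1 had 54.9 CPM from 1 UMI. Type 2 dendritic cells stood between them at 338.6 and 583.7 CPM in the PV libraries and overlapped both. B cells had 7.6 to 46.7 CPM and T cells 17.6 to 41.2 CPM.

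Ms4a6d, whose protein was found beside the Kupffer receptor VSIG4 in mouse macrophages, was more even across macrophages. Those outside the Kupffer gate had 207.2 and 178.5 CPM in PV libraries and 94.6 CPM in CV replicate 2, with 183.4 CPM in the 8 cells of CV replicate 1. Kupffer cells had 119.4 CPM in PV replicate 2 and 123.0 and 155.7 CPM in the CV libraries. The classes overlapped. Next came NK cells and ILC1 at 42.3 ± 73.3 CPM (n = 3), where 13 of 14 UMIs lay in 1 cell, and T cells were at 12.7 to 15.9 CPM.

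Ms4a7 was the most restricted macrophage member. Macrophages outside the Kupffer gate had 528.0 and 1096 CPM in PV libraries and 84.1 CPM in CV replicate 2, with 266.8 CPM in the 8 cells of CV replicate 1. Kupffer cells had 111.3 CPM in PV replicate 2 and 97.6 and 55.8 CPM in the CV libraries, and 274.5 CPM in the 4 cells of PV replicate 1, from 5 UMIs in 1 cell. No UMI was counted in the 12 monocytes or in any NK cell, ILC1, neutrophil or plasmacytoid dendritic cell, and all 12 T cell UMIs lay in 1 cell of PV replicate 2. Ms4a4a, the least abundant member, had 4 and 3 UMIs in the macrophages outside the Kupffer gate of PV replicates 1 and 2 and none in those of the CV libraries, and 5 UMIs in B cells of CV replicate 2.

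In macrophages against T cells all 6 members that passed the low-count filter were called, 4 higher and 2 lower in macrophages, in a comparison where 55% of 8170 genes were called. The members' median log2 fold change was 2.41 and that of all genes -0.11. Ms4a6c was 14.3-fold higher in macrophages (3.83 ± 0.29, adjusted p = 3.53e-07), Ms4a6d 9.15-fold (3.19 ± 0.22, adjusted p = 1.81e-07), and Ms4a4c 3.09-fold (1.63 ± 0.48, adjusted p = 0.0128), all by edgeR. Ms4a7 had a log2 fold change of 6.41 ± 0.55 (adjusted p = 1.03e-06), which rests on the 1 T cell named above.

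Ms4a6c and Ms4a6d were also counted in T cells, at a higher ratio to the summed macrophage markers than in macrophages. The gate placed cells by these same markers, which by design favours a higher ratio in T cells. The source of the T cell UMIs was not tested. In macrophages there were 0.0369 and 0.0161 UMIs of Ms4a6c per UMI of the 10 macrophage markers in PV libraries and 0.0211 and 0.0307 in CV libraries. In T cells the ratio was 2.71 and 0.297 in PV libraries and 0.429 and 1.12 in CV libraries, above all of the macrophage values. B cells also lay above them, at 4 and 0.0833 in PV libraries and 0.143 and 0.667 in CV libraries. These B cell values rest on 4 or fewer UMIs a library. NK cells and ILC1 had 0.846 in PV replicate 2 and 0.833 and 0.5 in the CV libraries. Neutrophils had 0 in every library. For Ms4a6d the ratio was 0.0151, 0.00671, 0.00598 and 0.00796 in macrophages and 1.29, 0.108, 0.31 and 0.75 in T cells, in the same order of libraries. In B cells and in NK cells and ILC1, Ms4a6d UMIs lay in PV replicate 2 only, at 0.0833 and 0.538. Of the 58 Ms4a6c UMIs in the T cells of PV replicate 2, 24 lay in 1 cell. After mixed barcodes were left out, T cells still had 24.8 and 21.4 CPM in PV libraries and 18.6 and 26.7 CPM in CV libraries. In thinned cells 8.78% of T cells (6.84 to 11.2%) had an Ms4a6c UMI. None of 16 neutrophils did, which at 3 counts of the total allows up to 18.8% of cells with a UMI.

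The macrophages outside the Kupffer gate differed from Kupffer cells in 4 of the 5 members tested, all higher, where 16.6% of 3745 genes were called. This test used the 3 libraries with at least 5 cells of both, a minimum added after the data were seen. The members' median log2 fold change was 2.29 and that of all genes -0.01. Ms4a4c was 11.1-fold higher outside the gate (3.48 ± 0.52, edgeR adjusted p = 2.45e-07), Ms4a6b 6.21-fold (2.63 ± 0.33, adjusted p = 2.64e-09), Ms4a7 4.9-fold (2.29 ± 0.38, adjusted p = 2.31e-06) and Ms4a6c 2.86-fold (1.52 ± 0.28, adjusted p = 1.91e-05). Ms4a6d did not pass (0.40 ± 0.35, adjusted p = 0.519). The Ms4a7 call was lost without PV replicate 2, where the value was 1.29.

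Monocyte markers were also higher outside the gate. The 10 monocyte markers summed, outside the gate, to 1437 and 1217 CPM for PV macrophages and to 983.9 and 1945 CPM for CV macrophages. In Kupffer cells they summed to 329.5 and 574.5 CPM in the PV libraries and to 746.5 and 658.1 CPM in the CV libraries, with no overlap, the first value from 4 cells. The sum was not specific to monocytes, which had 1252 to 8327 CPM. T cells had 735.4 to 922.4 CPM, type 1 dendritic cells 902 to 1543 CPM and type 2 dendritic cells 927.6 to 2965 CPM. Plasmacytoid dendritic cells had 4791 to 7441 CPM. B cells had 463.7 to 677.2 CPM, neutrophils 0 to 503.8 CPM, and NK cells and ILC1 129 to 1234 CPM. Among classes with at least 10 cells in a library, type 2 dendritic cells had the highest Ms4a4c mean, from PV libraries only. Their 8 markers summed outside the gate to 200.5 and 267.7 CPM for PV macrophages and to 0 and 63.1 CPM for CV macrophages. In Kupffer cells they summed to 0 and 39.5 CPM in the PV libraries and to 27.6 and 29.4 CPM in the CV libraries, so that CV replicate 1 had the lower sum outside the gate. The part of these markers in the member differences was not tested. Trem2, a lipid receptor gene of macrophages, was also higher outside the gate (3.07 ± 0.39, adjusted p = 3.42e-09). In thinned cells, 61.0% of macrophages outside the gate had Ms4a7 (45.7 to 74.3%), against 25.8% of Kupffer cells (19.6 to 33.2%). For Ms4a6c these shares were 87.8% (74.5 to 94.7%) and 61.9% (54.1 to 69.2%). Both Ms4a6c and Ms4a7 were found in 23 of 41 macrophages outside the gate and in 21 of 155 Kupffer cells.

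**Figure D5:**
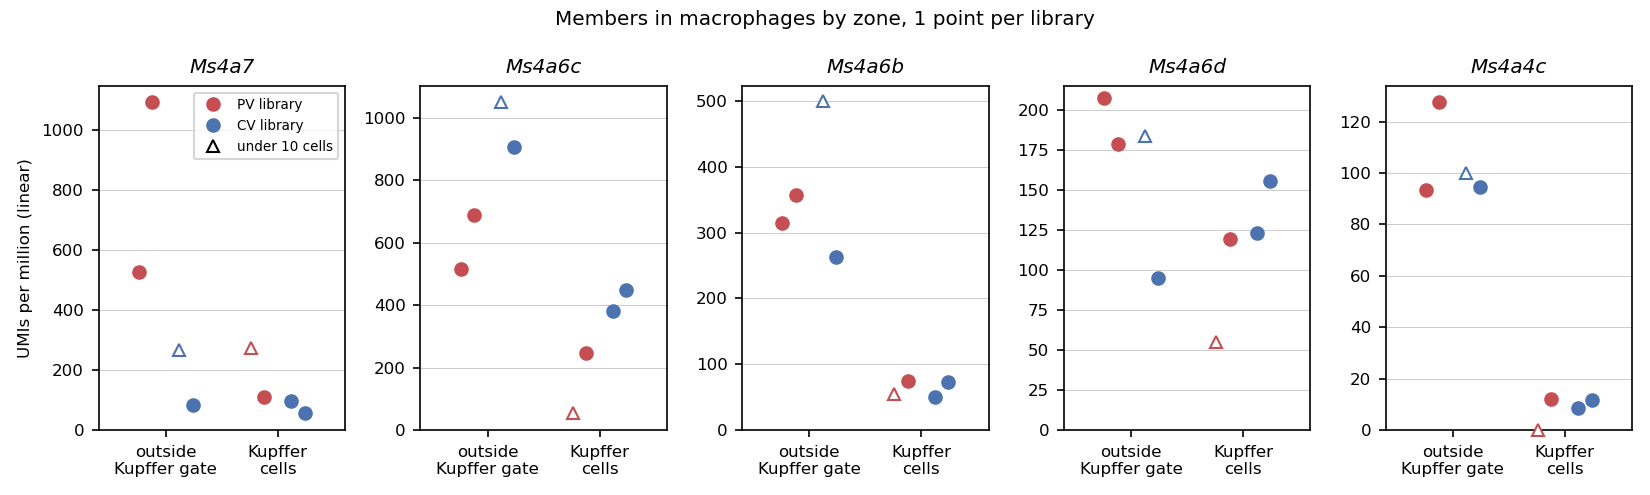
Members in macrophages outside the Kupffer gate and in Kupffer cells (x axis), in CPM on a linear y axis, with 1 point per PV or CV library and open triangles for libraries with under 10 such cells. Outside the gate Ms4a7 stands at 528.0 and 1096 CPM in PV libraries, above 266.8 and 84.1 CPM in CV libraries.

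The zones did not separate the members over all kept cells. None of the 7 members tested passed edgeR's adjusted threshold between PV and CV, as for all 10502 genes (0% called; 230 genes had an unadjusted p under 0.05, and DESeq2 called 9). The members' median log2 fold change was 0.08 and that of all genes 0.009. Ms4a7 had the widest difference (1.61 ± 0.52, unadjusted p = 0.0235), followed by Ms4a1 (-0.66 ± 0.35). In these sums, more cells of a class and more RNA per cell cannot be told apart. B cells numbered 19 and 46 in PV libraries and 33 and 58 in CV libraries.

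Within macrophages, Ms4a7 had 500.5 and 246.2 CPM in PV libraries and 116.7 and 62.0 CPM in CV libraries. The PV values lay above both CV values, a 4.26-fold difference (log2 fold change 2.09 ± 0.51) with an unadjusted p of 0.00363 and an edgeR adjusted p of 1. None of 5 members and none of 5899 genes passed (0% called; 107 genes had an unadjusted p under 0.05, and DESeq2 called 3). The members' median was 0.88 and that of all genes 0.003. With the replicate number as a block, Ms4a7 passed (2.11, adjusted p = 0.0358). It also passed without PV replicate 1 (1.40) and without PV replicate 2 (2.59), where 24 and 485 genes passed, but in those fits the lone PV library was assumed to vary like the CV libraries. It did not pass without CV replicate 1 (2.68, adjusted p = 0.606) or without CV replicate 2 (1.69, adjusted p = 1). With shared barcodes kept the value was 1.65 (adjusted p = 0.777). The libraries differ in makeup, since macrophages outside the Kupffer gate were 17 of 21 and 18 of 140 macrophages in PV libraries and 8 of 68 and 12 of 53 in CV libraries. With mixed barcodes left out, Ms4a7 in macrophages was at 434.4 and 404.6 CPM in PV libraries and at 104.7 and 75.5 CPM in CV libraries.

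Outside the Kupffer gate, tested alone after the data were seen, Ms4a7 was 4.87-fold higher in PV libraries (2.28 ± 0.54, edgeR adjusted p = 0.048). It was 1 of 5 members called, against 1.16% of 1896 genes, with a member median of 0.19 and an all-gene median of -0.01. The 3 cells with the most Ms4a7 UMIs held 36 of 79 and 91 of 172 in PV replicates 1 and 2. In CV replicates 1 and 2 they held 14 of 16 and 8 of 8. This class had 17, 18, 8 and 12 cells in these libraries, in the same order. DESeq2 did not call Ms4a7 (adjusted p = 0.0807). The call was also lost with DESeq2 size factors (2.29), with shared barcodes kept (1.64, adjusted p = 0.1), with at least 1000 UMIs per cell (2.26), with 1 more marker per gate (2.15), with mixed barcodes left out (2.80) and without PV replicate 1 (2.72), PV replicate 2 (1.76) or CV replicate 2 (1.52). The summed type 2 dendritic cell markers given above were likewise higher in the PV libraries of this class, and their part in the difference was not tested. Ms4a6c ran the other way there, with 514.6 and 688.4 CPM in PV libraries and 1051 and 904.3 CPM in CV libraries, and did not pass (-0.70 ± 0.39, adjusted p = 0.653). Trem2 was at 501.2 and 356.9 CPM in PV libraries and 216.8 and 84.1 CPM in CV libraries (1.59 ± 0.50, adjusted p = 0.22).

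In T cells none of 5 members and none of 7938 genes passed between PV and CV by edgeR (0% called; 214 genes had an unadjusted p under 0.05, and DESeq2 called 0). The members' median was 0.07 and that of all genes -0.006. Ms4a4b differed by 0.14 ± 0.12 and Ms4a6b by 0.07 ± 0.13 on the log2 scale. The difference between the zone effects of macrophages and T cells, also added after the data were seen, had an edgeR adjusted p of 1 for each of the 6 members tested. On the log2 scale it was 3.47 ± 1.0 for Ms4a4b (unadjusted p = 0.00583), whose macrophage UMIs in PV replicate 2 lay mostly in 3 cells, -1.14 ± 0.51 for Ms4a6c (unadjusted p = 0.0476) and -3.08 ± 2.65 for Ms4a7, whose T cell UMIs lay in 1 PV cell. B cells and NK cells had under 20 cells in a library and were not tested between zones.

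Among the remaining cells, neutrophils held almost no UMIs of the family. In 86 neutrophils, of which thinning kept 16, there was 1 UMI of Ms4a4b and none of any other member, at a median depth of 3131 UMIs. After thinning, none of 16 neutrophils had a UMI of any member, while 90% of 30 type 2 dendritic cells, 25.3% of 79 type 1 dendritic cells and 9.68% of 31 plasmacytoid dendritic cells did. Type 1 dendritic cells had 53.2 and 139.2 CPM of Ms4a6c in PV libraries and 19.1 and 57.4 CPM in CV libraries. With any member as the measure, all 63 thinned B cells, 92% of NK cells and ILC1, 97.6% of macrophages outside the Kupffer gate, 84.5% of Kupffer cells and 98.8% of T cells were positive.

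Members far apart in the cluster could be more alike in pattern than adjacent ones. Over 27 class and library sums with at least 10 cells, which share their 4 libraries, Pearson's r of log2(CPM + 10) was 0.79 for Ms4a6d and Ms4a7, which are 7 places apart. It was 0.78 for Ms4a6c and Ms4a6d, 0.75 for Ms4a4b and Ms4a6b and 0.61 for Ms4a1 and Ms4a4c. Pairs adjacent among the Ms4a genes gave -0.04 (Ms4a4b and Ms4a4c), -0.13 (Ms4a4b and Ms4a6c) and 0.43 (Ms4a6b and Ms4a6c, with Gm8369 between them). The genes most like each member outside the gate markers over the same sums were Fcer2a (r = 0.989), Vpreb3 (0.989) and Pou2af1 (0.988) for Ms4a1, and Gm19585 (0.968), Lck (0.962) and Pglyrp2 (0.958) for Ms4a4b. For Ms4a7 they were Pf4 (0.968), Ccl2 (0.951) and C3ar1 (0.951), and for Ms4a6d Axl (0.889), Rap2b (0.853) and Lpl (0.845). Ms4a6c had Vwa5a (0.875), Ehd4 (0.867) and Slc48a1 (0.856), and Ms4a6b had Tmem273 (0.910), AW112010 (0.843) and Gbp8 (0.840). Ms4a4c had the weakest matches, Gm15987 (0.833), H2-DMb2 (0.816) and Irf4 (0.815), and Ms4a4a was too low to be matched.

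Of the other Ms4a genes, 5 had any UMI. Ms4a8a had 155 UMIs and was a Kupffer cell gene here, with 75.9 CPM in PV replicate 2 and 76.4 and 114.6 CPM in the CV libraries. It was lower outside the Kupffer gate (log2 fold change -4.45 ± 0.90, edgeR adjusted p = 0.000118), the opposite direction to the 4 members called there. Ms4a14 had 12 UMIs, Ms4a4d 11, and Ms4a10 and Ms4a15 had 1 each. The relatives Tmem176a and Tmem176b, which lie elsewhere in the genome, were lower in B than in T cells (-4.61 ± 0.59 and -4.22 ± 0.43) and higher in macrophages than in T cells (1.42 ± 0.30 and 1.84 ± 0.25), with edgeR adjusted p-values of 0.00146 or lower.

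The genes inside and beside the cluster had their own patterns. Their UMIs are sums over B, T and NK cells, ILC1, macrophages, neutrophils and type 1, type 2 and plasmacytoid dendritic cells. Monocytes and the remaining kept cells are not in these sums, unlike in the Ms4a totals. Gm8369, an annotated gene inside the cluster with 886 UMIs, was higher in B cells than in T cells (2.25 ± 0.15, adjusted p = 4.39e-11) and lower in macrophages (-4.15 ± 0.30, adjusted p = 2.45e-07) and in NK cells and ILC1 (-3.63 ± 0.47, adjusted p = 1.23e-05), each against T cells and by edgeR. On the flanks Tmem109 had 312 UMIs, the splicing factor gene Prpf19 331, Ccdc86 244 and the mitochondrial ribosomal protein gene Mrpl16 339. None of Tmem109, Prpf19 and Mrpl16 passed between B and T cells (adjusted p = 0.915, 0.934 and 0.312). In macrophages against T cells, Tmem109 (1.36 ± 0.27, adjusted p = 0.000978) and Ccdc86 (2.11 ± 0.33, adjusted p = 0.000179) were higher and Mrpl16 (-1.01 ± 0.30, adjusted p = 0.0123) was lower, while Prpf19 did not pass (adjusted p = 0.62). The other 6 flanking genes had 6 UMIs or fewer.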

How the data were processed

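The authors deposited UMI counts per gene and barcode, 1 table per library, made with Cell Ranger 4.0.0 on mm10 per the submitters' processing notes. Of 32285 rows, 32158 have a symbol. Symbols and coordinates come from the GRCm38 annotation, promoter windows from RefSeq. Class gates need at least 3 detected markers and a lead of 10 percentage points; the scoring was set after marker detection was seen, and the members and lists were chosen with earlier results of these data known. Of the markers of the recirculating-like gate, 1 is not reported here. Scanpy 1.11.5 called 12 doublets with Scrublet, which were kept. The mixed-barcode rule (at least 3 markers of another lineage) removed more. In PV replicates 1 and 2 and CV replicates 1 and 2 it left 133, 135, 115 and 111 of 204, 205, 168 and 160 T cells. For macrophages it left 17, 81, 43 and 35 of 21, 140, 68 and 53. For B cells it left 19, 45, 33 and 57 of 19, 46, 33 and 58. Class sums per library were tested with edgeR 4.0.16 in R 4.3.3 (TMM, filterByExpr, quasi-likelihood, Benjamini-Hochberg over all genes, threshold 0.05), between zones with at least 20 cells in each library and between classes with at least 10 in 3 libraries. Depth was 2741760 to 4373488 UMIs a library, and intervals cover counting error only. Alternatives were DESeq2 1.42.0, other size factors, no filter, other cell rules, blocks and single libraries left out. The fit was tested on simulated data. Numbers were not taken as pairs. The correlation of same-numbered libraries was 0.033 over 2 pairs of all-cell sums. It cannot show whether the numbers pair the libraries, because all-cell sums also vary with class makeup. Named genes are the 8 members, the other Ms4a genes with a UMI, known relatives and partners, the 5 nearest protein-coding genes a side and the 3 genes most correlated with each member (mean at least 20 CPM).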

Additional observations from a re-analysis of the deposited data

Results flagged for a closer look

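The PV and CV values of Ms4a4c differed in opposite directions in a pair of classes. In type 1 dendritic cells it had 11.98 and 4.8 CPM in PV libraries and 0 in both CV libraries, so the mean was 8.39 CPM higher in PV, from 11 UMIs. In B cells it had 256.9 and 154.3 CPM in PV libraries and 266.1 and 305.3 CPM in CV libraries, a difference of means (PV minus CV) of -80.1 CPM from 154 UMIs. Without PV replicate 2, the PV value in B cells would be 256.9 CPM against a CV mean of 285.7 CPM. Neither zone difference was tested, nor the difference between them, and the dendritic cell value rests on few UMIs.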

How the results depend on the processing

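In B cells against T cells 4 members were called under every alternative and left-out library run; in macrophages against T cells 6 were, except with no filter on low counts (7). Over all alternatives other than left-out libraries, 354 of 375 values of single members kept direction and side of the threshold, 9 fell below it, 6 passed it and 6 turned; with 1 library left out these were 137 of 167, 7, 5 and 18. With shared barcodes kept, the number of member calls did not change in any comparison of classes. The tests of macrophages outside the Kupffer gate and of T cell sets, the mixed-barcode rule and the difference of zone effects were chosen after seeing the data. The cause of the changes below was not tested.

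With no filter on low counts, zone calls were 1 member and 151 genes over all cells, and 2 and 62 in macrophages; DESeq2 called 9 and 3 genes there. Without 1 library, all-cell calls were 0 to 229 genes, macrophage calls 0 to 3 members and 0 to 485 genes, and T cell calls 0 to 39 genes. Outside the Kupffer gate the member call between zones went to 0 under DESeq2 size factors (11 genes, against 22), DESeq2 (11), shared barcodes kept (12), at least 1000 UMIs per cell, 1 more marker per gate (10), mixed barcodes left out (1) and without 1 library (0 to 1 members, 0 to 63 genes); no filter gave 49 genes. NK cells and ILC1 against T cells had 1 member and 340 genes with DESeq2, and 1 to 2 members and 350 to 710 genes without 1 library. Outside the Kupffer gate against Kupffer cells, 298 genes were called by DESeq2 and 330 without mixed barcodes. Cxcr6+ against recirculating-like T cells had 0 members with DESeq2, 3 with 1 more marker, 2 without mixed barcodes, 2 with no library block, and 0 to 2 members and 241 to 680 genes without 1 library.

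The replicate block is a fit with the shared replicate number; it gave 1 member (Ms4a7, 2.11) and 12 genes in macrophages, 36 genes outside the Kupffer gate, and turned Ms4a6d over all cells to -0.05. It changed no other member call. With 2 pairs of all-cell sums, the correlation of 0.033 cannot show whether the numbers pair the libraries.

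Signs turned for members that were not called. Without mixed barcodes Ms4a4b was -0.04 and Ms4a6c 0.18 over all cells, Ms4a6c -0.03 and Ms4a6d 0.34 in T cells, and Ms4a6b 0.45 outside the Kupffer gate (log2, PV over CV). Without 1 library the ranges over all cells were -0.23 to 0.31 (Ms4a4b), -0.15 to 0.96 (Ms4a4c), -0.20 to 0.40 (Ms4a6b), -0.57 to 0.32 (Ms4a6c) and -0.64 to 0.45 (Ms4a6d). They were -0.74 to 0.03 (Ms4a6c) and -0.12 to 0.62 (Ms4a6d) in macrophages, -1.64 to 1.38 (Ms4a4c), -0.01 to 0.16 (Ms4a6b) and -0.24 to 0.12 (Ms4a6d) in T cells, and -0.65 to 0.39 (Ms4a6b) and -0.00 to 1.05 (Ms4a6d) outside the Kupffer gate. Ms4a6c ranged over -0.03 to 1.56 in NK cells and ILC1 against T cells, and -0.04 to 0.43 between the T cell sets.

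Thinning to 1000 UMIs leaves fewer UMIs by construction: Ms4a1 was then in 47.4% and Ms4a4c in 21.1% of B cells, Ms4a4b in 60.6% and Ms4a6b in 43% of T cells (90.5% unthinned), and Ms4a6c in 41.5%, Ms4a6d in 11.3% and Ms4a7 in 35.9% of macrophages outside the Kupffer gate. Depth limits Ms4a4a, with 15 UMIs in all.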
